A study of Homo sapiens with 5 samples.

Results

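The CDKN2A locus lies on the short arm of chromosome 9, and 8 genes of that arm were described across 5 human pancreatic cell lines. In chromosomal order from the telomere side they were HAUS6, RPS6, FOCAD, KLHL9, MTAP, CDKN2A, CDKN2B and CAAP1. They were chosen by their place on 9p and with their levels on these same arrays known, so their levels are given as a description with no test. They are 8 of the 19775 genes that had a probe set annotated to 1 gene symbol, and together they had 27 such probe sets of 41091. A probe set is a group of short DNA probes that together read 1 transcript or a few related ones, and its value is an intensity with no absolute unit. RNA was measured on 1 array per line, with no treatment. PANC1, SU86.86, HPAF1 and L3.6 are lines from pancreatic carcinomas. HPDE is known as an immortalised line of pancreatic duct epithelium, made in its usual form with papillomavirus oncogenes whose products disable RB and p53, although its source label calls it a cancer line like the others. A line is 1 cell population grown in culture, so each value stands for that culture and not for pancreatic cancer or duct tissue in general.

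CDKN2A encodes 2 unrelated proteins from overlapping reading frames. INK4A blocks the cyclin D kinases CDK4 and CDK6 and so keeps RB active, and ARF holds back MDM2, the ubiquitin ligase of p53. CDKN2B, next to it, encodes another INK4 inhibitor of the same kinases. MTAP, on the other side, encodes the enzyme that returns methylthioadenosine, a by-product of polyamine synthesis, to methionine. This stretch of the chromosome is well known for deletions in pancreatic carcinoma that can take neighbouring genes with CDKN2A. The arrays read RNA, and whether any low reading went with a loss of DNA was not tested. In a bulk extract, fewer cells with a transcript and less of it per cell cannot be told apart.

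The stretches before the starts of the 3 genes at the centre of the locus are shown. They were picked because these genes, on their brightest probe sets, were near background in PANC1 and SU86.86 only. Each run is the 250 bases before a RefSeq start in build GRCh38.p14, 5′ to 3′ on the strand of its gene, with CpG dinucleotides in capitals. The array table names no build, and these positions belong to the RefSeq table alone. Of the pair of CDKN2A starts, the upstream one is known for ARF and the one nearer MTAP for INK4A.
CDKN2A, ARF start, chr9:21995325-21995574, minus strand: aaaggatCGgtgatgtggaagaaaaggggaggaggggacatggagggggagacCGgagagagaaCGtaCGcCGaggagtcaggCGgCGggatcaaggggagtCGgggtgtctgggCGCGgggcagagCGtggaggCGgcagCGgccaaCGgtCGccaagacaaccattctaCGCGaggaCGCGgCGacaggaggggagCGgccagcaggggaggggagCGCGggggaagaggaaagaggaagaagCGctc
CDKN2A, INK4A start, chr9:21974858-21975107, minus strand: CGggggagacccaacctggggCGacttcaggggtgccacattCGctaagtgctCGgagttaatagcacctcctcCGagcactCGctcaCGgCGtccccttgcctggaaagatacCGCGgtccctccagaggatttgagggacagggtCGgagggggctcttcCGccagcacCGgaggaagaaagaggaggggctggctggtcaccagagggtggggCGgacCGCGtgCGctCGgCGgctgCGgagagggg
CDKN2B, chr9:22009306-22009555, minus strand: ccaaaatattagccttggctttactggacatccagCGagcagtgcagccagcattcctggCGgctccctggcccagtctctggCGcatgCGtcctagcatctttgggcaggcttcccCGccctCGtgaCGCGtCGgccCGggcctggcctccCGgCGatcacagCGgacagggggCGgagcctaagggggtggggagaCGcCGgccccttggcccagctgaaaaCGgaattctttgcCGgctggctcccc
MTAP, chr9:21802386-21802635, plus strand: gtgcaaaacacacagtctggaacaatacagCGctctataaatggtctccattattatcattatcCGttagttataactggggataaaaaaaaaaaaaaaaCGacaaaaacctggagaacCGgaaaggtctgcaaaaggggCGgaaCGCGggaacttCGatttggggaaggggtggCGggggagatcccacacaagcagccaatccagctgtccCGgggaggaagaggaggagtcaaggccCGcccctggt
The ARF start held 24 CpG, the INK4A start 20, CDKN2B 18 and MTAP 11, against a median of 11 over the 35116 promoters of the table. GGGCGG, the core of the GC box that SP1 binds, was searched on both strands. It occurred 0 times before the ARF start, 1 time before the INK4A start, 2 times before CDKN2B and 2 times before MTAP, and 42.6% of all promoters of the same length held at least 1 copy. TATAAA, searched likewise, occurred 1 time before MTAP and 0 times in the other 3 runs, while 10.7% of all promoters held it. RPS6, HAUS6, FOCAD and KLHL9 also matched an entry, so 7 of the 8 genes had one, and CAAP1 had none. A match is a string of letters and not a shown binding site.

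The arrays were alike in overall brightness, with medians between 137 and 143 intensity units. On 9 probe sets for RNA spiked into every hybridisation the SD between arrays on the log2 scale was 0.10 at the median and at most 0.14, which covers hybridisation and scanning but not a second culture. A difference between 2 lines of up to 0.29, which is 2 times that maximum, is described here as within the array error. This limit is a loose guide, because the SD of single arrays is smaller than that of a difference between 2. Whether it holds for dim readings was not tested. Readings were judged near background when they did not exceed the 95th percentile of 107 probe sets for olfactory receptor genes, which serve in nasal epithelium. That limit was 218 intensity units in PANC1, 219 in SU86.86, 238 in HPAF1, 255 in L3.6 and 191 in HPDE. All 5 epithelial markers, KRT8, KRT18, KRT19, EPCAM and CDH1, were above the limit in every line, with summed intensities from 20739 in PANC1 to 89957 in HPAF1 among the carcinoma lines and 32900 in HPDE. Of 10 measured markers of other cell types, between 1 in HPAF1 and 3 in L3.6 were above it among the carcinoma lines and 2 in HPDE, with sums from 1277 in SU86.86 to 7227 in PANC1, against 1628 in HPDE. The leukocyte marker PTPRC, the acinar marker CPA1 and the islet hormones INS and GCG were near background in all 5 lines. The high sum in PANC1 came from the collagen COL1A1, a fibroblast marker, at 6005. The other fibroblast markers, COL3A1 at 120 and DCN at 200, were near background there. L3.6 was above its limit for COL1A1, at 1478, and COL3A1, at 408, but not for DCN. Of the endothelial markers, PECAM1 read between 426 and 668 in every line, while VWF, at 73.9 to 106, was near background in all 5. The part of the cells behind these marker readings in the results below was not tested.

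CDKN2A was read strongly in HPAF1, L3.6 and HPDE and near background in PANC1 and SU86.86. Its brightest probe set, 209644_x_at, had an intensity of 179 in PANC1, 189 in SU86.86, 11086 in HPAF1 and 5597 in L3.6, against 9148 in HPDE. These readings put CDKN2A above 99.5% of the one-symbol probe sets on the HPAF1 array, above 98.7% in L3.6 and above 99.4% in HPDE, but above 52.4% in PANC1 and 53.8% in SU86.86. The order of levels was HPAF1, HPDE, L3.6, SU86.86 and PANC1, in which neither HPAF1 and HPDE (0.28 apart on the log2 scale) nor SU86.86 and PANC1 (0.05 apart) differed beyond the array error. With the dim side set at the background limit, CDKN2A in PANC1 was at least 42.0-fold lower than in HPDE, and in SU86.86 at least 41.8-fold lower. The suffix _x_at marks a probe set that may also bind other transcripts. A second probe set without that suffix, 207039_at, read 31.3 in PANC1, 30.6 in SU86.86, 2725 in HPAF1 and 1213 in L3.6, against 2018 in HPDE. The lines stood in the same order on it except that PANC1 and SU86.86 changed places by less than the array error. The remaining probe set, 211156_at, read between 154 and 222 in the 5 lines, hardly above the limit even in SU86.86, its highest line. The sources used here do not state which of the INK4A and ARF transcripts each probe set reads.

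CDKN2B stood highest in HPAF1 and was near background in the same lines as CDKN2A. Its probe set 236313_at read 21.5 in PANC1, 24.9 in SU86.86, 2789 in HPAF1 and 257 in L3.6, against 729 in HPDE. HPAF1 was 3.82-fold above HPDE, while CDKN2B in L3.6 was 2.83-fold below HPDE and barely over the background limit of its array. L3.6 thus had CDKN2A among its brightest transcripts and CDKN2B close to the limit. PANC1 was at least 3.35-fold and SU86.86 at least 3.34-fold lower than HPDE, and these 2 lines were within the array error of each other. The other probe set, 207530_s_at, gave 28.5 in PANC1, 31.1 in SU86.86, 655 in HPAF1 and 81.3 in L3.6, against 210 in HPDE, so only HPAF1 and HPDE passed the limit there.

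MTAP had 6 probe sets, 4 of which exceeded the background limit in some line, and they did not agree in PANC1. The brightest, 231984_at, read 28.6 in PANC1, 17.3 in SU86.86, 1955 in HPAF1 and 494 in L3.6, against 886 in HPDE. On it MTAP in PANC1 was at least 4.07-fold lower than in HPDE, and in SU86.86 at least 4.05-fold lower, and 2.21-fold higher in HPAF1. Probe sets 204956_at and 216685_s_at likewise read 13.9 and 19.2 in PANC1 and 15.2 and 27.4 in SU86.86. Probe set 211363_s_at, whose suffix marks a group of probes that may bind several transcripts, read 837 in PANC1, 51.0 in SU86.86, 1141 in HPAF1 and 510 in L3.6, against 242 in HPDE. PANC1 was thus near background on 3 of the 4 responsive MTAP probe sets and 3.46-fold above HPDE on the fourth, while SU86.86 was near background on all 4. The part of the transcript that each probe set reads was not analysed here. The probe sets also parted L3.6 from HPDE in opposite directions. L3.6 was 1.79-fold lower than HPDE on 231984_at, but 2.36-fold, 2.11-fold and 2.31-fold higher on 204956_at, 211363_s_at and 216685_s_at. Probe sets 211364_at and 217134_at were near background in all 5 lines.

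**Figure D1:**
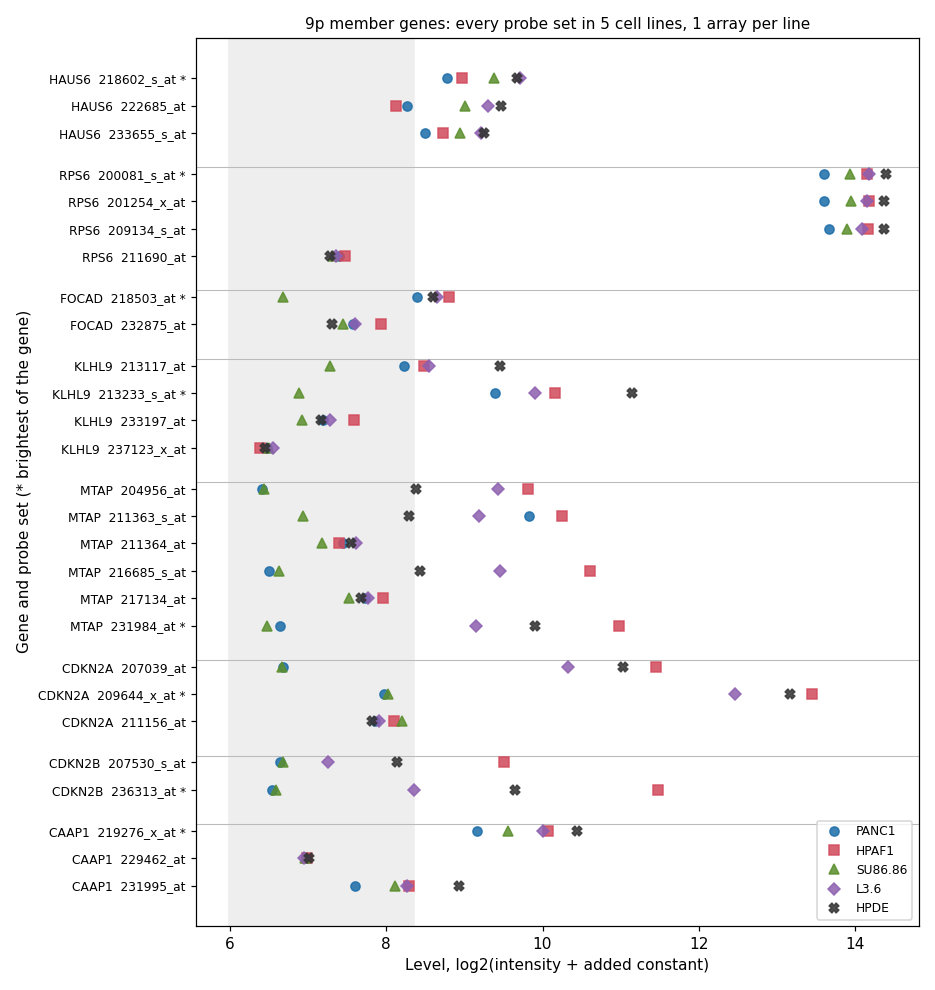
Level of every probe set of the 8 genes in each line, as log2 of the intensity plus the added constant of 71.1, with 1 point per line and array. The grey band ends at the highest of the 5 background limits, and PANC1 and SU86.86 lie in it for CDKN2A, CDKN2B and most MTAP probe sets, while SU86.86 alone lies in it on the brightest probe sets of FOCAD and KLHL9.

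KLHL9 and FOCAD, which lie between MTAP and the telomere, were near background in SU86.86 and above it in PANC1. KLHL9 is an adaptor of the CUL3 ubiquitin ligase that acts on Aurora B in mitosis. Its brightest probe set, 213233_s_at, read 602 in PANC1, 47.2 in SU86.86, 1074 in HPAF1 and 888 in L3.6, against 2190 in HPDE. SU86.86 was at least 10.02-fold lower than HPDE, whereas PANC1 was 3.64-fold, L3.6 2.47-fold and HPAF1 2.04-fold lower, all 3 above background. HPDE had the most KLHL9 of the 5 lines. HPAF1 and L3.6 were within the array error of each other. The dimmer probe set 213117_at had SU86.86 lowest as well, at 84.1, with 228 in PANC1, 286 in HPAF1 and 304 in L3.6, against 629 in HPDE. Probe sets 233197_at and 237123_x_at of KLHL9 were near background throughout.

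FOCAD encodes focadhesin, a large protein tied to focal adhesions and to the stability of the superkiller complex of RNA decay. Probe set 218503_at read 266 in PANC1, 31.6 in SU86.86, 376 in HPAF1 and 331 in L3.6, against 317 in HPDE. All lines other than SU86.86 lay above their background limits, and each was within the array error of its neighbour in the order. SU86.86 was the only line under its limit. FOCAD was dim everywhere, so with SU86.86 set at its limit it was only at least 1.45-fold lower than HPDE, which is less than 2-fold. The other FOCAD probe set, 232875_at, was near background in all lines.

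The 3 outer genes, HAUS6 and RPS6 toward the telomere and CAAP1 toward the centromere, were read in every line. HAUS6 is a subunit of augmin, which seeds new microtubules along those of the spindle. Its probe set 218602_s_at read 365 in PANC1, 592 in SU86.86, 430 in HPAF1 and 767 in L3.6, against 745 in HPDE. PANC1 and HPAF1, the lowest lines, were within the array error of each other, as were L3.6 and HPDE. On the other HAUS6 probe sets PANC1 and HPAF1 were again the lowest lines, and on 222685_at HPAF1, at 207, was under its background limit.

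RPS6, a protein of the small ribosomal subunit and a target of S6 kinase, was among the brightest transcripts of every array. Probe set 200081_s_at read 12344 in PANC1, 15566 in SU86.86, 18177 in HPAF1 and 18432 in L3.6, against 21450 in HPDE. PANC1 was 1.74-fold, SU86.86 1.38-fold, HPAF1 1.18-fold and L3.6 1.16-fold lower than HPDE, and probe sets 201254_x_at and 209134_s_at gave between 1.64-fold and 1.71-fold for PANC1. Only PANC1 was separated from its neighbour in the order, SU86.86, by more than the array error. None of the 18 other measured proteins of the small subunit was 2-fold from HPDE in any carcinoma line. Their median log2 difference from HPDE was -0.08 in PANC1, -0.19 in SU86.86, -0.13 in HPAF1 and -0.12 in L3.6, while that of RPS6 was -0.79, -0.46, -0.24 and -0.22 in the same lines. The 18 ranged from -0.47 to 0.40 in PANC1, where RPS6 lay below all of them. RPS28 was lower than RPS6 in SU86.86, at -0.54. Several of the 18 were lower than RPS6 in HPAF1 and L3.6, among them RPS12, at -0.49 and -0.36.

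CAAP1 is known as a modulator of caspase activity. Its probe set 219276_x_at read 502 in PANC1, 684 in SU86.86, 1005 in HPAF1 and 953 in L3.6, against 1324 in HPDE. PANC1 was 2.64-fold and SU86.86 1.94-fold lower than HPDE, and those 2 lines differed from each other by 0.40 on the log2 scale. On the dimmer 231995_at PANC1 was again lowest, at 122, but only HPAF1 and HPDE lay above their limits, and 229462_at was near background in every line.

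Counted on the brightest probe set of each gene, PANC1 was lower than HPDE by 2-fold or more for 5 of the 8 genes on the log2 scale with the added constant, namely KLHL9, MTAP, CDKN2A, CDKN2B and CAAP1, and higher for 0. Over the 14911 genes that passed the level filter, 9.51% were as much lower in PANC1 and 8.62% as much higher. When all probe sets of a gene were averaged the count for PANC1 was 2, and with the mean of the other 4 lines in place of HPDE it was 3. In SU86.86 5 genes were lower, namely FOCAD, KLHL9, MTAP, CDKN2A and CDKN2B, and 0 higher, where 7.9% of all genes were lower and 8.63% higher. These counts take readings near background at their measured value. As intensity ratios with such readings raised to the limit, a setting added after seeing the data, FOCAD left the count in SU86.86, which was then 4, and HAUS6 joined that in PANC1, which was then 6. In L3.6 KLHL9 and CDKN2B were lower, 2 of 8, where 8.81% of all genes were lower and 6.73% higher, and 0 of the 8 were higher. The count of 2 in L3.6 was 1 when all probe sets were averaged and 0 with the mean of the other 4 lines in place of HPDE. In HPAF1 MTAP and CDKN2B were higher, 2 of 8, where 7.94% of all genes were higher, and 0 were lower, where 9.48% were lower. KLHL9 in HPAF1, at a log2 difference of -0.98 on this scale, was just short of 2-fold. Against the mean of the other 4 lines the log2 difference of KLHL9 in PANC1 was -0.13, instead of -1.75 against HPDE, and that of CDKN2B in L3.6 was -0.20, instead of -1.28. That of CAAP1 in PANC1 was -0.86 against that mean and -0.88 with all probe sets averaged, instead of -1.28. The genes were chosen with these differences known and HPDE is common to all 4 comparisons, so the counts are not set against the shares as evidence. No difference between lines has a replicate check.

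The near-background pattern of each gene was also set beside that of all 14911 genes, of which 148 were other genes of 9p. The 8 genes were chosen with these levels known, so the shares describe them and are not evidence. Each pattern rests on the brightest probe set of a gene. MTAP, for one, read 837 in PANC1 on 211363_s_at, above the limit. For 8093 of them, or 54.3%, every line lay above its background limit, as it did for HAUS6, RPS6 and CAAP1. PANC1 and SU86.86 near background with HPAF1, L3.6 and HPDE above the limit was the pattern of 68 genes, or 0.456%, of which 4 lie on 9p. These 4 were MTAP, CDKN2A and CDKN2B and, much nearer the centromere, the pseudogene FRG1HP. SU86.86 alone near background was the pattern of 180 genes, or 1.21%, and the 4 on 9p were FOCAD, KLHL9, MIR31HG and NUDT2. PANC1 alone near background was the pattern of 251 genes, of which DENND4C, CDC37L1 and AQP3 lie on 9p. HPAF1 alone near background was more common, with 363 genes, and the 6 on 9p were KANK1, PLIN2, TUSC1, FAM219A, TLN1 and SLC25A51. L3.6 alone was the pattern of 351 genes, 2 of them on 9p, and HPDE alone that of 112, with 0 on 9p. By range over the 5 lines, 0.429% of genes varied as widely as CDKN2A, 0.718% as CDKN2B, 1.26% as MTAP, 1.68% as KLHL9, 12.6% as FOCAD, 31.0% as CAAP1, 46.0% as HAUS6 and 53.6% as RPS6.

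Between HAUS6 and CAAP1, 28 other genes had a probe set, and 22 of these were near background in all 5 lines. Among them were all 14 interferon genes of the cluster around KLHL9, most of which are induced by viral infection, and which read between 18.3 and 184 intensity units. They give no view of this stretch in any line. Of the 28 genes 10 passed the level filter, and of these 3 were at least 2-fold lower than HPDE in PANC1, 3 in SU86.86, 3 in HPAF1 and 1 in L3.6. At least 2-fold higher were 0 in PANC1, 2 in SU86.86, 1 in HPAF1 and 1 in L3.6, and the shares over all genes are those given above. MIR31HG, the host transcript of miR-31, lies between KLHL9 and MTAP and read 352 in PANC1, 108 in SU86.86, 973 in HPAF1 and 260 in L3.6, against 450 in HPDE. SU86.86 was the only line in which MIR31HG was near background, as for KLHL9 and FOCAD, but L3.6 was barely over its limit of 255. For MIR31HG PANC1 was 0.30 below HPDE on the log2 scale. On the telomere side of FOCAD, MLLT3, a reader of acylated histones, read 126 in PANC1, 485 in SU86.86, 288 in HPAF1 and 128 in L3.6, against 122 in HPDE. Only SU86.86 and HPAF1 were above their limits for MLLT3. SU86.86 was thus highest for MLLT3 and lowest for FOCAD, which are neighbours among the measured genes.

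On their brightest probe sets, other genes in this stretch were not near background in PANC1 and SU86.86 alone, as CDKN2A, CDKN2B and MTAP were. DENND4C, an exchange factor for a Rab GTPase, read 176 in PANC1, 244 in SU86.86, 615 in HPAF1 and 352 in L3.6, against 1145 in HPDE. PANC1 and SU86.86 were thus also the lowest lines for DENND4C, but only PANC1 was near background. PLIN2, which coats lipid droplets, was lowest in HPAF1, at 86.2, while PANC1 had 442, SU86.86 had 1070 and L3.6 had 1117, against 290 in HPDE. On the other side of CDKN2B, the neuronal RNA-binding protein ELAVL2 read 22.4 in PANC1, 25.9 in SU86.86, 21.0 in HPAF1 and 206 in L3.6, against 363 in HPDE, where alone it passed its limit. TUSC1 was lowest in HPAF1, at 209, where it was near background, while PANC1 had 652, SU86.86 had 1537 and L3.6 had 1752, against 2612 in HPDE. HPAF1, the line with the most CDKN2B and MTAP, was therefore the lowest in TUSC1, between CDKN2B and CAAP1.

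Beyond the outermost genes, the 9 filtered genes among the nearest 10 toward the telomere were within 2-fold of HPDE in every carcinoma line. Toward the centromere, 2 of 6 filtered genes were at least 2-fold lower than HPDE in each carcinoma line. They were IFT74, a subunit of the intraflagellar transport machinery, and C9orf72, which acts in autophagy and endosomal traffic. C9orf72 read 158 in PANC1, 281 in SU86.86, 179 in HPAF1 and 197 in L3.6, against 854 in HPDE. IFT74 read between 107 and 147 in the carcinoma lines, against 569 in HPDE. IFT74 was near background in every carcinoma line, and C9orf72 in each of them but SU86.86. Over the whole short arm, 148 other genes passed the filter. Of these genes 23, or 15.5%, were at least 2-fold lower than HPDE in PANC1, 16.9% in SU86.86, 17.6% in HPAF1 and 10.1% in L3.6. The share lower was 10.7%, 12.5%, 12.9% and 5.79% in the same lines over 449 genes of the long arm, and 9.51%, 7.9%, 9.48% and 8.81% over all genes. On the short arm 12.2% of the genes were at least 2-fold higher in PANC1, 4.05% in SU86.86, 4.05% in HPAF1 and 6.08% in L3.6. On the long arm 5.12%, 4.23%, 6.46% and 4.90% were higher in the same lines. The median log2 difference of the short arm was -0.04 in PANC1, -0.10 in SU86.86, -0.12 in HPAF1 and -0.01 in L3.6. That of the long arm was -0.09, -0.19, -0.09 and 0.04, so the long arm had the lower median in PANC1 and SU86.86. These shares share HPDE and were not tested. With the mean of the other 4 lines in place of HPDE, the counts on the short arm were 7 in PANC1, 13 in SU86.86, 12 in HPAF1 and 6 in L3.6.

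**Figure D2:**
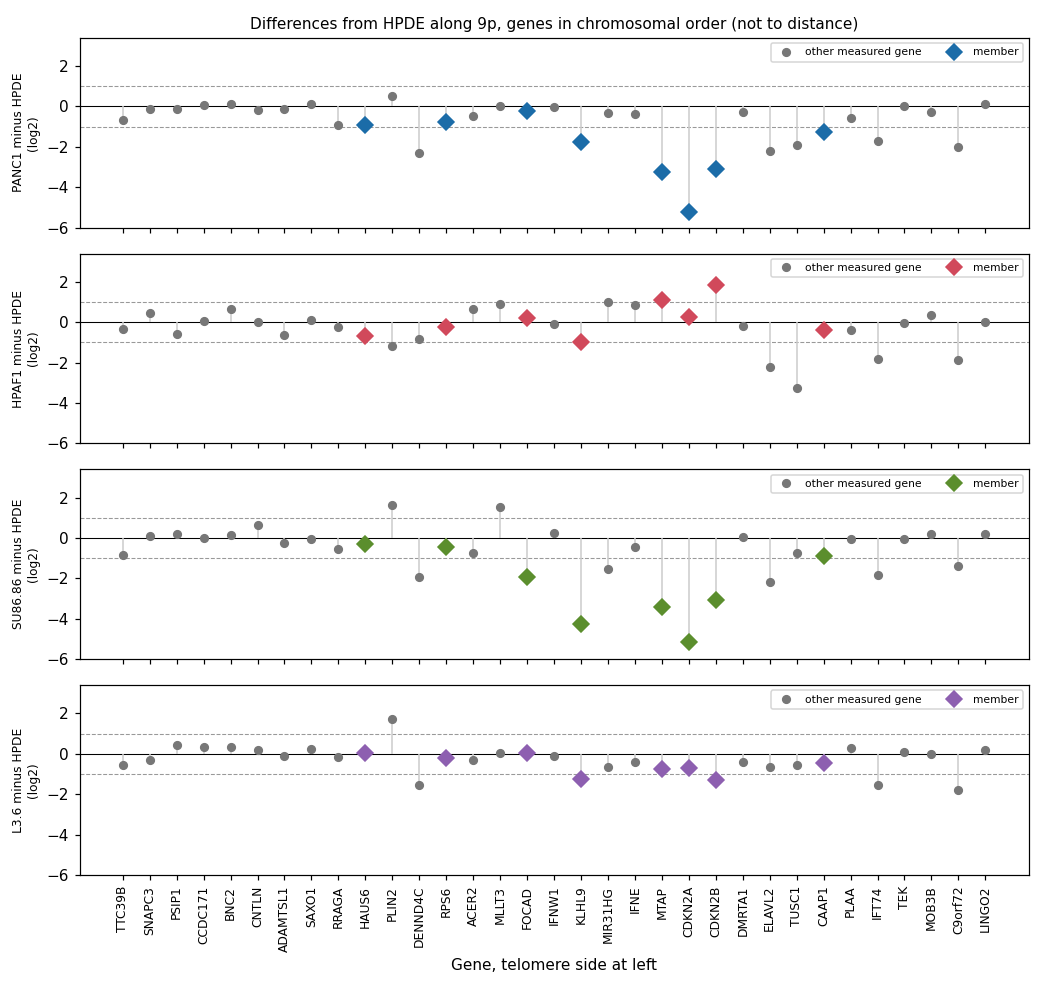
Log2 difference of each carcinoma line from HPDE for the 8 genes, the genes between them and the nearest genes beyond them on either side. Only genes that passed the level filter are drawn, and the rest of 9p is left out. The genes stand in chromosomal order with the telomere at left and equal spacing, so distances are not to scale. Coloured diamonds are the 8 genes, grey points the others and dashed lines 2-fold; the lowest point is CDKN2A in PANC1 and in SU86.86, and FOCAD lies at -0.20 in PANC1 but at -1.92 in SU86.86, where its reading was near background.

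Genes that work with the members were read from 11 lists. Over all genes, 9.51% were at least 2-fold lower than HPDE in PANC1, 7.9% in SU86.86, 9.48% in HPAF1 and 8.81% in L3.6. At least 2-fold higher were 8.62%, 8.63%, 7.94% and 6.73% in the same lines. The lists are short, and their counts are descriptions that were not tested against these shares. Of the other inhibitors of cyclin-dependent kinases, CDKN2D, an INK4 protein, read 365 in PANC1, 338 in SU86.86, 345 in HPAF1 and 338 in L3.6, against 247 in HPDE. The carcinoma lines were 0.36 to 0.46 above HPDE in CDKN2D on the log2 scale, beyond the array error. CDKN1A, the p53 target that inhibits CDK2, read 1299 in PANC1, 3030 in SU86.86, 3932 in HPAF1 and 589 in L3.6, against 7667 in HPDE. Of the 4 measured, 3 were at least 2-fold lower than HPDE in PANC1, 1 in SU86.86, 1 in HPAF1 and 2 in L3.6, and 0 were higher in any.

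Of the 14 genes of the RB axis, all but CCND2, CCNE2 and RBL1 were above background in every line. The list's median log2 difference from HPDE was 0.49 in PANC1, 0.45 in SU86.86, -0.42 in HPAF1 and 0.59 in L3.6, against 0.03, -0.02, 0.02 and 0.03 over all genes. The kinases that INK4 proteins bind were both present, with CDK4 at 5088 in PANC1, 4156 in SU86.86, 2913 in HPAF1 and 4948 in L3.6, against 2680 in HPDE. CDK6 read 1847 in PANC1, 3013 in SU86.86, 1155 in HPAF1 and 2614 in L3.6, against 2460 in HPDE. RB1 itself was above background in every line, between 622 in HPAF1 and 1766 in SU86.86, against 819 in HPDE. CCNE2, a cyclin E gene induced by E2F, read 1322 in PANC1, 744 in SU86.86, 177 in HPAF1, under its background limit, and 931 in L3.6, against 210 in HPDE. CCNE1 read 1576, 1628, 253 and 976 in the same carcinoma lines, against 464 in HPDE. HPAF1 and HPDE were thus the lowest lines for both cyclin E genes, and L3.6 lay with PANC1 and SU86.86. Any link of the RB axis readings to CDKN2A was not tested. The D-type cyclin CCND2 was near background in all 4 carcinoma lines, at 64.9 to 94.3, and read 3608 in HPDE. In PANC1 3 of the 14 were at least 2-fold higher than HPDE and 2 lower, in HPAF1 0 and 3, in SU86.86 5 and 2, and in L3.6 3 and 2. RBL1, an RB relative, was lowest in HPAF1, at 82.5 and near background, while PANC1 had 374, SU86.86 had 310 and L3.6 had 383, against 427 in HPDE.

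Of the ARF and p53 axis, 5 genes were measured, and 1, MDM4, was at least 2-fold lower than HPDE in each carcinoma line. MDM4, which restrains p53, read between 167 in L3.6, near background, and 586 in SU86.86, against 1826 in HPDE. MDM2, the ARF partner, read 1422 in PANC1, 1068 in SU86.86, 795 in HPAF1 and 1267 in L3.6, against 1586 in HPDE. Of 9 measured repressors of the locus, mostly Polycomb genes, 1 was at least 2-fold lower than HPDE in PANC1 and 2 in HPAF1, while SU86.86 and L3.6 had 1 higher each. EZH2, the Polycomb methyltransferase, read 980 in PANC1, 751 in SU86.86, 331 in HPAF1 and 611 in L3.6, against 561 in HPDE. SUZ12, its partner, read 4044 in PANC1, 2312 in SU86.86, 1208 in HPAF1 and 3747 in L3.6, against 2574 in HPDE. HPAF1 had the lowest readings of both and PANC1 the highest. EED, the third core subunit, was instead highest in L3.6, at 3529. L3.6, which read CDKN2A strongly, had more SUZ12 than SU86.86, where CDKN2A was near background. RING1, the repressor lower in PANC1, read 1297 there, 1513 in SU86.86, 1212 in HPAF1 and 1532 in L3.6, against 2828 in HPDE. Any link of these readings to CDKN2A was not tested.

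Around MTAP, all 11 genes of methionine salvage and polyamine metabolism were measured. In each carcinoma line 1 was at least 2-fold lower than HPDE, which was SRM in HPAF1 and SAT1 in the others. In each of them but HPAF1 1 was higher, namely SRM in PANC1, ODC1 in SU86.86 and MRI1 in L3.6. SAT1, which acetylates spermidine and spermine for export or breakdown, read 2161 in PANC1, 2645 in SU86.86, 6283 in HPAF1 and 3297 in L3.6, against 11630 in HPDE. SRM, spermidine synthase, read 4058 in PANC1, 2322 in SU86.86, 863 in HPAF1 and 1967 in L3.6, against 1962 in HPDE. MRI1, the enzyme just after MTAP, read 712 in PANC1, 281 in SU86.86, 440 in HPAF1 and 1441 in L3.6, against 550 in HPDE. ODC1, the first enzyme of polyamine synthesis, was highest in SU86.86, at 14682, and in PANC1, at 10252, and read 5153 in HPAF1 and 8375 in L3.6, against 5552 in HPDE. The median of the 11 log2 differences was 0.33 in PANC1, 0.23 in SU86.86, -0.28 in HPAF1 and 0.00 in L3.6.

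Methylthioadenosine, the substrate of MTAP, is known to inhibit the arginine methyltransferase PRMT5. PRMT5 read 5043 in PANC1, 5490 in SU86.86, 3408 in HPAF1 and 3308 in L3.6, against 3059 in HPDE. Its partner WDR77 read 2464 in PANC1, 2238 in SU86.86, 997 in HPAF1 and 3009 in L3.6, against 1051 in HPDE. Of the 5 genes of the complex PANC1 had 2 at least 2-fold higher than HPDE, SU86.86 and L3.6 had 1 each, and HPAF1 had 1 lower. PANC1 and SU86.86 had the most PRMT5 transcript, while for WDR77 L3.6 was highest. Any link of these readings to MTAP was not tested.

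Among partners of KLHL9, its substrate AURKB read 2721 in PANC1, 3336 in SU86.86, 806 in HPAF1 and 3245 in L3.6, against 237 in HPDE. KLHL13, which pairs with KLHL9 in the ligase, read 258 in PANC1, 33.5 in SU86.86, 17.0 in HPAF1 and 460 in L3.6, against 207 in HPDE. SU86.86 was thus near background for both KLHL9 and KLHL13, and HPAF1 for KLHL13 alone. The scaffold CUL3 read between 2205 and 3470 in the carcinoma lines, against 3414 in HPDE.

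Augmin and its anchor gave 7 measured genes, of which PANC1 had 0 at least 2-fold lower than HPDE, SU86.86 had 2, HPAF1 had 4 and L3.6 had 1. HAUS1 read 2662 in PANC1, 739 in SU86.86, 617 in HPAF1 and 1807 in L3.6, against 1678 in HPDE. HAUS7 read 1483 in PANC1, 326 in SU86.86, 319 in HPAF1 and 737 in L3.6, against 925 in HPDE. PANC1 was thus highest in HAUS1 and HAUS7, while in HAUS6 it was low together with HPAF1. The superkiller complex had 0 of 5 genes lower than HPDE by 2-fold in PANC1, HPAF1 or SU86.86 and 1, SKIC3, in L3.6. Of 6 caspases and regulators, 1 was lower in each of PANC1, SU86.86 and L3.6 and 0 in HPAF1. The gene was CASP9 in PANC1, at 208 and near background, and XIAP in SU86.86 and L3.6. XIAP, a caspase inhibitor, read 2002 in PANC1, 629 in SU86.86, 2629 in HPAF1 and 724 in L3.6, against 1608 in HPDE.

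**Figure D3:**
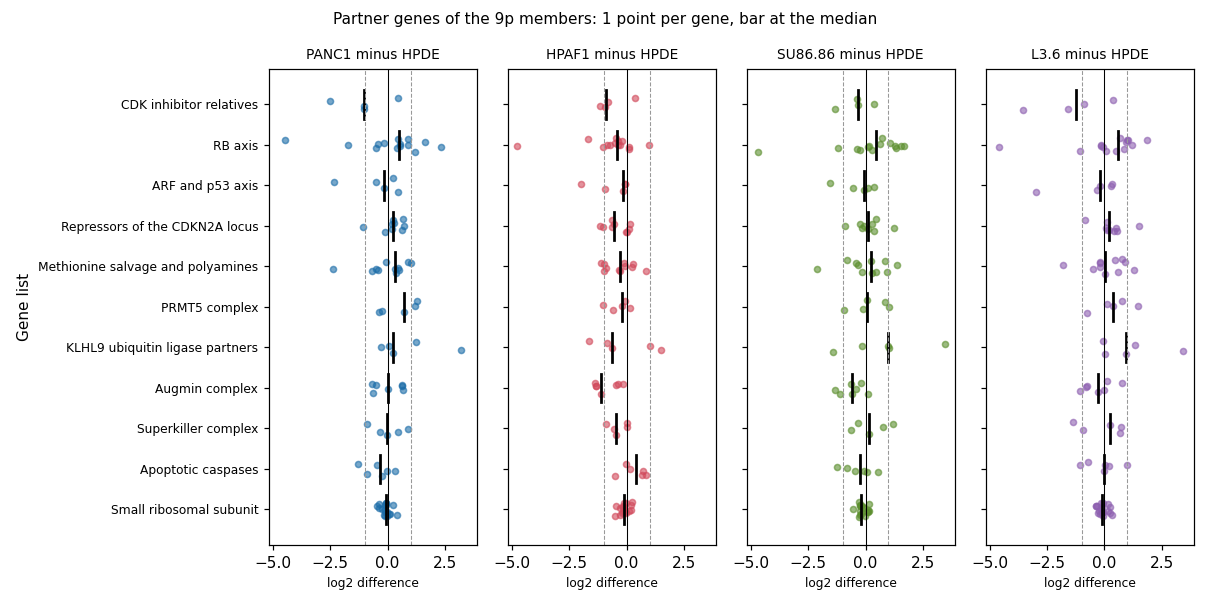
Log2 difference of each carcinoma line from HPDE for the measured genes of 11 lists of partners of the 8 genes, with 1 point per gene, spread vertically for sight, a black bar at the median of the list and dashed lines at 2-fold. The small ribosomal subunit stays close to 0 in every panel, CCND2 is the far left point of the RB axis in each, and AURKB is the far right point of the KLHL9 partners.

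Likeness of pattern was measured as the root mean square difference between the log2 levels of 2 genes after each was centred on its mean over the 5 lines. Nearest to CDKN2A were IFITM1 (0.71), an interferon-induced membrane protein on chromosome 11, and S100P (0.74), a calcium-binding protein on chromosome 4. MTAP (0.83), FOS (1.05) and AQP3 (1.10) came next, and of these MTAP and AQP3 lie on 9p. Nearest to CDKN2B were FOS (0.41), an immediate early transcription factor on chromosome 14, MTAP (0.42) and ALDH2 (0.50), the mitochondrial aldehyde dehydrogenase. Nearest to MTAP were CDKN2B (0.42), FOS (0.47) and ELF3 (0.53), an epithelial transcription factor on chromosome 1. MTAP and CDKN2B were therefore among each other's closest genes of 14911, but genes on other chromosomes lay as close. FOS read 87.9 in PANC1, 132 in SU86.86, 6220 in HPAF1 and 1015 in L3.6, against 1064 in HPDE. CDKN2B stood at place 8 in likeness to CDKN2A, KLHL9 at 36, FOCAD at 300, CAAP1 at 506, RPS6 at 1384 and HAUS6 at 2669. In the other direction CDKN2A stood at place 69 in likeness to CDKN2B and at 12 in likeness to MTAP. With 5 values per gene, all from the same 5 arrays, likeness describes these lines and says nothing of shared control.

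**Figure D4:**
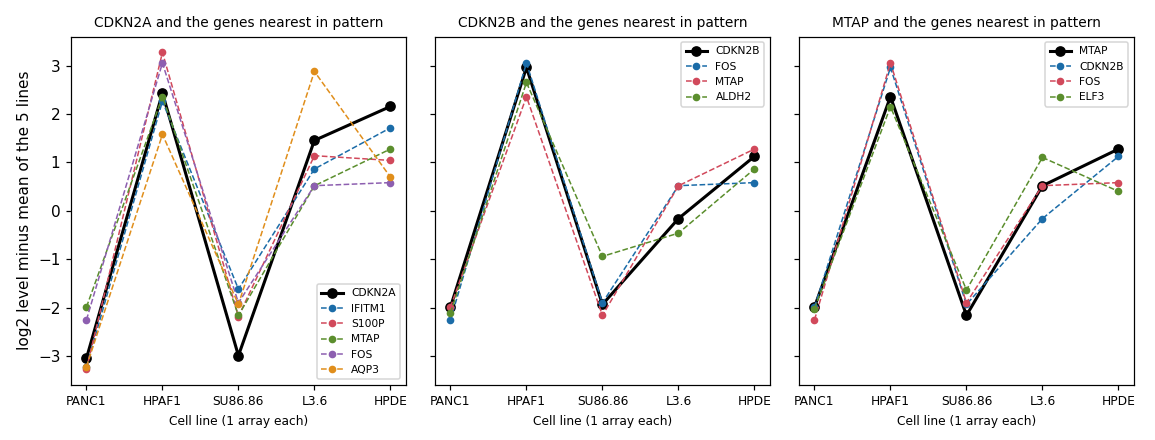
Log2 level minus the mean of the 5 lines for CDKN2A, CDKN2B and MTAP, in black, and the genes nearest to each in pattern, in colour, with 1 array per line; lines between points only guide the eye. Each of the 3 genes peaks in HPAF1 and is lowest in PANC1 and SU86.86.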

How the data were processed

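RNA of 5 cell lines was measured on 5 one-colour arrays, 1 per line, with biotin-labelled target made by a single-cycle kit, per the labels' protocols. The authors deposited linear intensity values for 54675 probe sets; the method of summary and scaling was not given in the sources used here. Array medians on the log2 scale differed by 0.04, and the values were used as deposited. Levels are log2(intensity + 71.1), the constant being the 25th percentile of all values, which understates the change of dim genes; calls and counts of genes at 2-fold use this scale with dim readings as measured, while the fold given for a single gene is a ratio of intensities, with a dim reading raised to its background limit. A RefSeq table for GRCh38.p14 gave current symbols for 41037 of 41091 probe sets with 1 symbol, and the order of genes; 1801 probe sets with several symbols were not named. Each gene was represented by its brightest probe set, and genes reaching an intensity of 140 in some line, the median of all probe sets, passed the level filter. The script was tested on simulated data. Calls are 2-fold or more from HPDE; with 1 array a line no test was possible, and the number of arrays limits the precision. The members and lists were chosen with earlier results of these data known. The design set that up to 4 genes of widest range be named in each list. Not all of these were named, among those left out being COPRS, CDKN1C, KLHL21, CDK2 and CASP8. Some other genes were named after their values were seen. Alternatives changed the constant, normalization, probe set choice, filter, fold, comparison line and treatment of dim readings. Python 3.11.15, NumPy 2.4.6, pandas 2.3.3 and Matplotlib 3.10.9 were used.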

Additional observations from a re-analysis of the deposited data

How the results depend on the processing

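Of the 14 differences of a member from HPDE that reached 2-fold, 13 kept their sign under all 8 alternatives that apply to them and 8 also stayed past 2-fold in all of these. The exception in sign was KLHL9 in L3.6, at 0.51 against the mean of the other 4 lines, a comparison chosen after seeing the data. CDKN2A stayed between -5.67 and -3.17 in PANC1 and between -5.60 and -3.04 in SU86.86, and KLHL9 in SU86.86 between -5.54 and -1.65. KLHL9 in L3.6 and 5 others fell short of 2-fold in some setting. KLHL9 in PANC1 weakened to -0.13 and CDKN2B in L3.6 to -0.20 against the other 4 lines, and CAAP1 in PANC1 to -0.86. MTAP in PANC1 weakened to -0.95 with its 6 probe sets averaged. FOCAD in SU86.86 weakened to -0.89 with probe sets averaged and to -0.53 as a ratio of intensities with dim readings raised to the limit, also chosen after seeing the data. Members lower in PANC1 numbered 2 when all probe sets were averaged and 3 against the mean of the other 4 lines, instead of 5. Those lower in L3.6 numbered 1 when all probe sets were averaged, 1 without the _s_at and _x_at probe sets, 0 at 3-fold and 0 against the other 4 lines, instead of 2, and 1 was then higher. In HPAF1 1 was lower with no added constant, with a constant of 16, as a ratio of intensities with dim readings raised, with arrays scaled to one median and without _s_at and _x_at probe sets, instead of 0, and 1 was higher at 3-fold, instead of 2. At 3-fold the other 9p genes lower than HPDE numbered 13 in PANC1, 12 in SU86.86, 7 in HPAF1 and 6 in L3.6, instead of 23, 25, 26 and 15, and against the other 4 lines 7, 13, 12 and 6. Quantile normalization and scaling left every count of members within 1.5 times except that in HPAF1. No paired analysis was possible because each line has 1 array. Where CDKN2A, CDKN2B, MTAP, KLHL9 and FOCAD were near background, their folds are bounds only.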
